A study of Homo sapiens with 10 samples.

Results

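The genes of the Wnt pathway were followed through the hepatic differentiation of H1 human embryonic stem cells (hESCs), an established cell line. A gene was counted as a member by its name: the WNT ligands, the FZD, LRP and ROR receptors, the R-spondins with their LGR receptors and the ligases RNF43 and ZNRF3, the secreted antagonists of the SFRP, DKK, FRZB, WIF1 and NOTUM type, the cytoplasmic DVL, AXIN, APC, GSK3B, CTNNB1 and NKD proteins, the TCF7 and LEF1 nuclear factors, SP5 and PORCN. This rule took 48 of the 12125 genes of the deposited table, and 1 name of the rule, NKD2, was not analysed here. RNA was sequenced on 10 days, with 1 library per day: daily from day 0 to day 3, every other day from day 5 to day 13, and at the end on day 21. The day 0 cells were kept in mTeSR1 medium on Matrigel and had received none of the agents. The cells of days 1, 2 and 3 had received Activin A at 100 ng per ml, those of days 5 and 7 FGF4 at 30 and BMP2 at 20 ng per ml, while the medium of days 9 and 11 held 20 ng per ml of HGF and as much KGF. Day 21 was taken in Oncostatin M (OSM) at 20 ng per ml. Day 13 is labelled OSM, but the lengths of the steps make it the last day with HGF and KGF, so its medium is uncertain. The base medium changed as well, from mTeSR1 on day 0 to RPMI with an insulin-free supplement for Activin A. RPMI with an insulin-containing supplement followed, and then hepatocyte culture medium for OSM. Differences between steps, and between day 0 and later days, therefore cannot tell the agents from the base medium. All libraries come from the H1 line, and cells are named at each stage by presumed type alone. No Wnt protein, Wnt inhibitor or GSK3 inhibitor is named among the agents. The components of the base media, mTeSR1 included, are not listed, and whether they act on the pathway was not tested.

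Wnt ligands are lipid-modified proteins that bind a Frizzled receptor together with LRP5 or LRP6. In the canonical branch this stops the complex of AXIN, APC and GSK3B from marking β-catenin (CTNNB1) for destruction, and β-catenin then acts with TCF7 and LEF1 family factors on target genes, several of which (AXIN2, NKD1, NOTUM, RNF43, ZNRF3, LGR5, SP5) feed back on the pathway. The pathway is known for its part in the primitive streak and definitive endoderm (DE), for its restraint when foregut is formed, and later for the growth of the liver and the zonation of hepatocytes.

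The values are GC-normalized scores and not read counts, and they carry no correction for gene length, so that levels were compared between days of 1 gene and never between genes. Every change is given as a difference of log2(value + 1), on which low genes appear to change less than they do. A gene was tested in a pair of days if its larger value was at least 50, and was counted as higher or lower from a log2 difference of 2. There were no replicate libraries, so no statistical test was made, and "tested" means only compared with this limit. To show the usual distance between a pair of libraries, the standard deviation (SD) of the log2 difference between days 9 and 11, which share a medium, is used: it was 1.10 for genes with a mean value below 20, 0.49 from 20 to 50, 0.36 from 50 to 200 and 0.28 from 200 to 1000, any true change between these days included. No member was counted as higher or lower between these days, and in each direction 0.107% of all genes tested were. The library totals differed by at most 1.36%, and depth cannot be read from them. The summed value of 7 stem cell markers was 14023 on day 0 and 142 on day 21, that of 8 DE markers was 30 on day 0 and 22657 on day 3, and that of the 7 hepatocyte markers found of 9 listed was 168 on day 3 and 54282 on day 21. Such sums only mark the stage and are carried by a few genes on the highest level of the scale, which CER1 held on day 3 and TTR and SERPINA1 on day 21. In these bulk libraries, fewer cells of a type and less RNA per cell cannot be told apart.

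Of the 48 Wnt genes, 44 reached a value of 50 in at least 1 library, and 28 of these ranged over a log2 difference of at least 2 across the course, against 40.2% of all genes that reached 50. The members ranged over a median of 3.82 on the log2 scale and all 12125 genes over 1.70. For 18 of the 28 the highest value came on day 3, 5 or 7, which was the case for 23.4% of all genes of such a range. Only 3 had their highest value on day 0, 1 or 21 (SFRP2 on day 0, RSPO2 and WNT5A on day 21), against 54.3% of those genes. Neither group of days was set in advance, so these shares only describe the course. Days 2 and 13, in neither group, held the highest value of 3 members each, beside 6.48% and 8.24% of those genes. The map of all members shows genes of each role that changed along the course beside others, such as LRP6, DVL1 and GSK3B, that stayed within a narrow range.

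**Figure D1:**
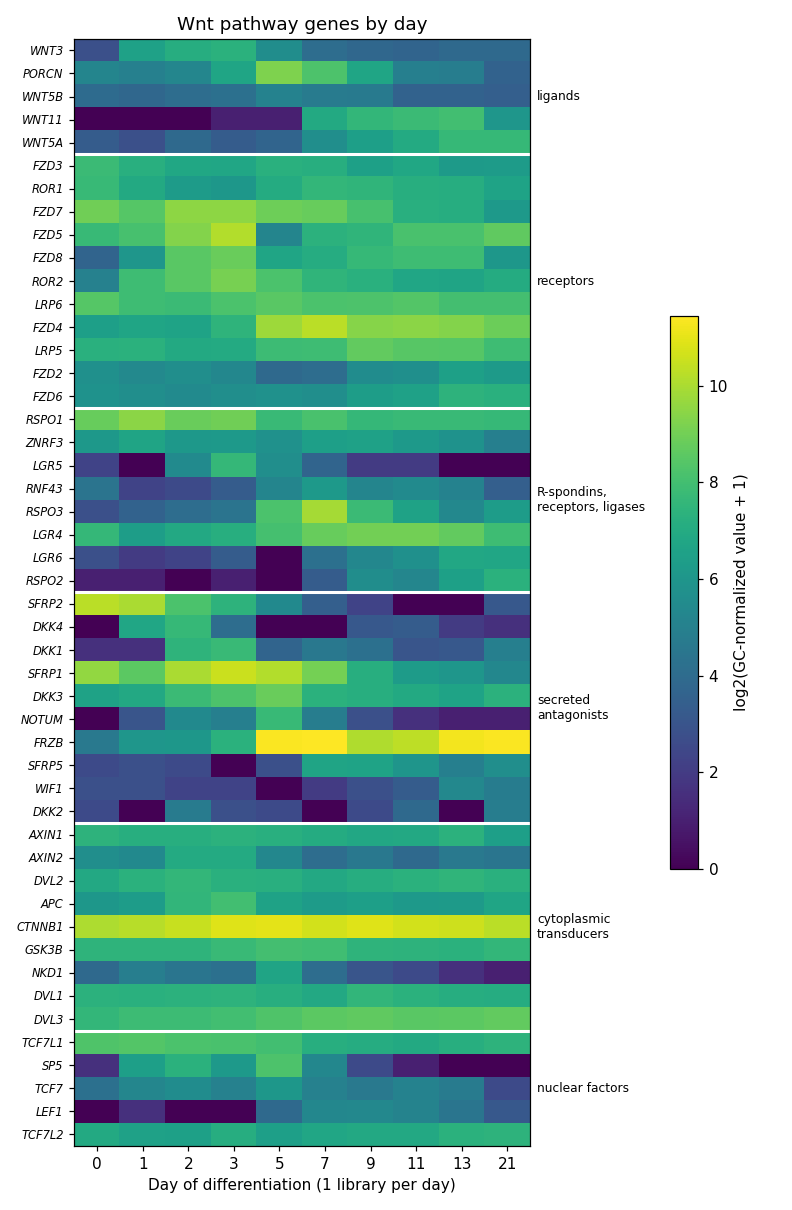
Values of the 48 Wnt genes, as log2(GC-normalized value + 1), in the 10 libraries (columns, by day), grouped by role and ordered within a role by the day of the highest value. SP5, NOTUM, NKD1 and PORCN are brightest on day 5, FRZB and FZD4 from day 5 on, and the rows of DVL1, DVL2, AXIN1 and GSK3B are nearly even.

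The first comparison was of the DE stage with hESCs. At day 3, after Activin A, 8 of the 33 members tested were higher than on day 0 (DKK1, LGR5, FZD8, SP5, WNT3, ROR2, FRZB and FZD5) and 1 was lower, SFRP2. Of all 8934 genes tested, 3.94% were higher and 2.16% lower. Over all 48 members the median log2 difference was 0.35, and over all genes -0.04. In the daily libraries before it, 5 members were higher on day 1 than on day 0 (DKK4, FZD8, ROR2, SP5 and WNT3, of 30 tested) and 0 lower, where 1.02% and 0.811% of all genes were, and on day 2 DKK1, DKK4, FZD8, ROR2, SP5 and WNT3 were higher and SFRP2 lower, of 32 tested, where 2.41% and 1.63% were. These 3 comparisons share the day 0 library. The genes higher on day 3 held a ligand, receptors, antagonists and target genes at once. Of the 8 cytoplasmic members tested, 0 passed the limit, with APC (1.92) and AXIN2 (1.37) below it but above a limit of 1, and so few genes give no contrast with the other roles.

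WNT3, a canonical ligand needed for the primitive streak (ENSG00000108379, chromosome 17, bases 44839872 to 44896126 as the table gives them), had a value of 6 on day 0, 94 on day 1, 138 on day 2 and 158 on day 3. The value was then 48 on day 5, 16 on day 7, 13 on day 9, 12 on day 11 and 14 on days 13 and 21. WNT3 was thus high in the 3 Activin A libraries, above each of the other 7, with a log2 difference of 4.51 from day 0 to day 3 and of -3.23 from day 3 to day 7. Of the WNT family, WNT3, WNT5A, WNT5B and WNT11 were the members in the table, and WNT3 was the 1 of these with a value high enough to be tested between days 0 and 3.

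SP5, a Sp-family repressor that is a direct target of β-catenin (ENSG00000204335, chromosome 2, bases 171571861 to 171574588), was at 2 on day 0 and at 86, 159 and 72 on days 1, 2 and 3. It was highest on day 5, at 302, and then 39 on day 7, 5 on day 9, 1 on day 11 and listed at 0 on days 13 and 21. The course of SP5 had a first peak on day 2 and a higher one on day 5, with a log2 difference of 4.60 from day 0 to day 3 and of 2.05 from day 3 to day 5. The promoters of SP5, WNT3 and DKK1 are shown because these genes came up within the same 2 days. They run from 250 bases before to 50 after the transcription start in RefSeq (GRCh38.p14), 5′ to 3′ on the strand of the gene, with CTTTGAT, the core bound by TCF and LEF factors, or its reverse complement ATCAAAG in capitals. The windows are chr2:170715087-170715386 on the plus strand for SP5, chr17:46818643-46818942 on the minus strand for WNT3 and chr10:52314031-52314330 on the plus strand for DKK1.
SP5: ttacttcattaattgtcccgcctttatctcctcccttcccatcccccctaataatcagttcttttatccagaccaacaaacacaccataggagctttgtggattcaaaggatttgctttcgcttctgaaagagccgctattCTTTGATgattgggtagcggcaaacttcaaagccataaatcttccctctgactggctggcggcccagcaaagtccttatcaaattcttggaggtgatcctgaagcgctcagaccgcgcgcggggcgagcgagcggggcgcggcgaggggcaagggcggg
WNT3: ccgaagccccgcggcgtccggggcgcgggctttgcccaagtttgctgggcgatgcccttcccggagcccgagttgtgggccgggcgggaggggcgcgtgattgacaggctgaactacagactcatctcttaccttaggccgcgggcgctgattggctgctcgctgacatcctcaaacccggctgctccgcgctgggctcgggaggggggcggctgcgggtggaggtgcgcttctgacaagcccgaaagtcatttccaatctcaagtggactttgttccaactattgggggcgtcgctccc
DKK1: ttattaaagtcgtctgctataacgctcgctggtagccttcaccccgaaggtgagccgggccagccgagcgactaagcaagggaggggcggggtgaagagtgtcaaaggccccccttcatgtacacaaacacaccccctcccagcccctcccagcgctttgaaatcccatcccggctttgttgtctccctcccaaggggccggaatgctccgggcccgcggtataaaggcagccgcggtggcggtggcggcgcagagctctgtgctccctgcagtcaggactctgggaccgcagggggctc
The SP5 window held 1 match, which began 109 bases before the start, and the windows of WNT3 and DKK1 held none. Of the 48 members, 32 had a promoter in the table of RefSeq promoters and SP5 was the 1 with a match on either strand. Over all 35116 promoters of this length, 2.62% held 1 or more. A match describes letters in this window and is not evidence of binding. AXIN2, DKK2, DKK3, DKK4, FZD2, FZD3, FZD6, FZD7, LGR5, LRP6, NKD1, NOTUM, RSPO2, SFRP1, WNT11 and ZNRF3 had no entry.

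DKK1, which blocks LRP5 and LRP6 and is itself a β-catenin target, was at 2 on days 0 and 1, 176 on day 2 and 214 on day 3. From day 5 on it was between 7 and 30, with 12 on day 5, 23 on day 7, 18 on day 9, 7 on day 11, 8 on day 13 and 30 on day 21. The log2 difference of DKK1 from day 0 to day 3, 6.16, was the largest of the members tested. The related DKK4 was listed at 0 on day 0, at 108 on day 1, at its highest value of 200 on day 2 and at 16 on day 3. It was then listed at 0 on days 5 and 7 and had 8, 9, 3 and 2 on days 9, 11, 13 and 21. DKK4 was above 50 only on days 1 and 2, so that the comparison of day 3 with day 0 did not test it, and it was high 1 day before DKK1.

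LGR5, a receptor for R-spondins and a target of β-catenin, was at 4 on day 0, listed at 0 on day 1, at 44 on day 2 and at 198 on day 3. Its later values were 49, 12, 3 and 3 on days 5, 7, 9 and 11, and it was listed at 0 on days 13 and 21. AXIN2, a scaffold of the destruction complex used widely as a readout of canonical signalling, had 49 on day 0, 42 on day 1 and 128 on days 2 and 3, and 39 on day 5, 16 on day 7, 23 on day 9, 14 on day 11, 24 on day 13 and 21 on day 21. The log2 difference of AXIN2 from day 0 to day 3 was 1.37, below the limit, while that from day 3 to day 7, -2.92, passed it. DKK4, DKK1, LGR5 and AXIN2 thus had their highest value on day 2 or 3 and differed in the day on which they came up and in how soon they were low again, as the plot of transient genes shows.

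**Figure D2:**
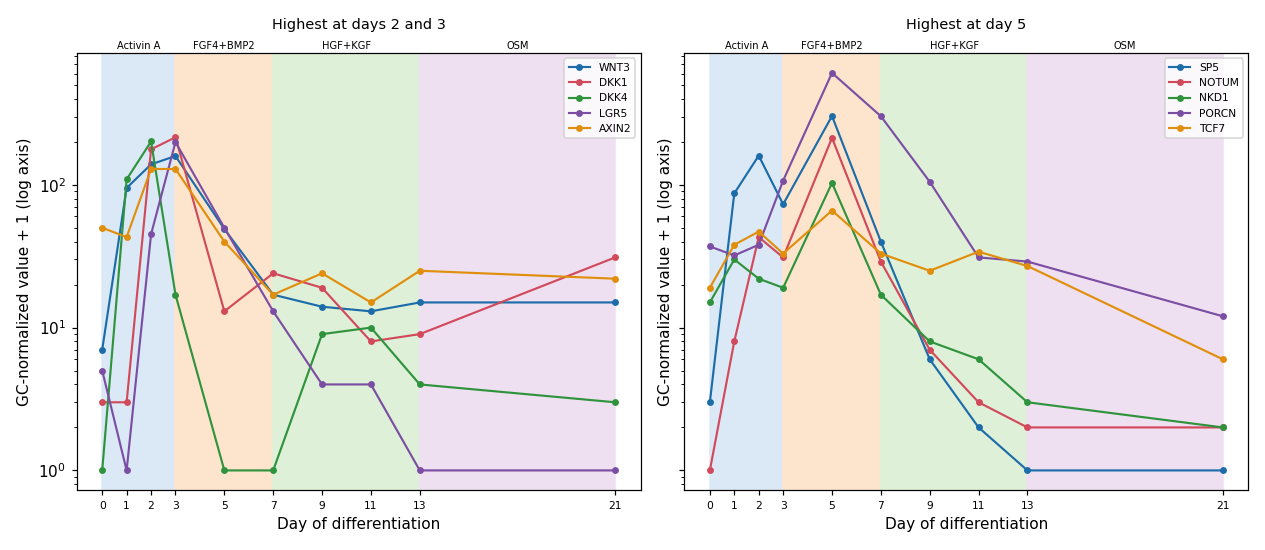
GC-normalized value + 1 (log axis) against day of differentiation for genes highest on days 2 and 3 (left) and on day 5 (right), with 1 library per point and shading for the media. Left, WNT3 and DKK4 are up on day 1 and DKK1 on day 2; right, SP5, NOTUM, NKD1 and PORCN peak on day 5, at 302, 212, 102 and 606.

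Among the receptors, FZD5, FZD8 and ROR2 were higher on day 3 than on day 0. FZD8 had values of 12, 64, 364 and 456 on days 0 to 3, then 104 and 136 on days 5 and 7, 202 on day 9, 234 on days 11 and 13, and 66 on day 21. FZD5 had 210, 274, 642 and 1108 on days 0 to 3, was at 36 on day 5, and went from 165 on day 7 to 180, 288, 282 and 402 on days 9, 11, 13 and 21. FZD5 was thus at its highest and its lowest value in successive libraries, with a log2 difference of -4.91 from day 3 to day 5. ROR2, a receptor tyrosine kinase for WNT5A and part of non-canonical signalling, had 32 on day 0, 234, 362 and 550 on days 1, 2 and 3, 294 and 178 on days 5 and 7, 152, 108 and 102 on days 9, 11 and 13, and 132 on day 21. Every later library held more ROR2 than day 0, and the log2 difference from day 0 to day 3 was 4.06. Its relative ROR1 was lower on day 3 (66) than on day 0 (207), a log2 difference of -1.63 that did not reach the limit.

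FZD7 is a receptor abundant in hESCs. It had values of 506 on day 0, 340 on day 1, 734 on days 2 and 3, 480 on day 5, 447 on day 7, 280 on day 9, 150 on day 11, 139 on day 13 and 70 on day 21. No stage comparison passed the limit for FZD7, and its lowest value came at the end. FZD4, a receptor for both Wnt proteins and Norrin, had its lower values first, with 88, 104, 99 and 176 on days 0 to 3, 875 on day 5, 1250 on day 7, 660, 714 and 642 on days 9, 11 and 13, and 470 on day 21. Its values on days 5 to 21 were all above those of days 0 to 3.

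**Figure D3:**
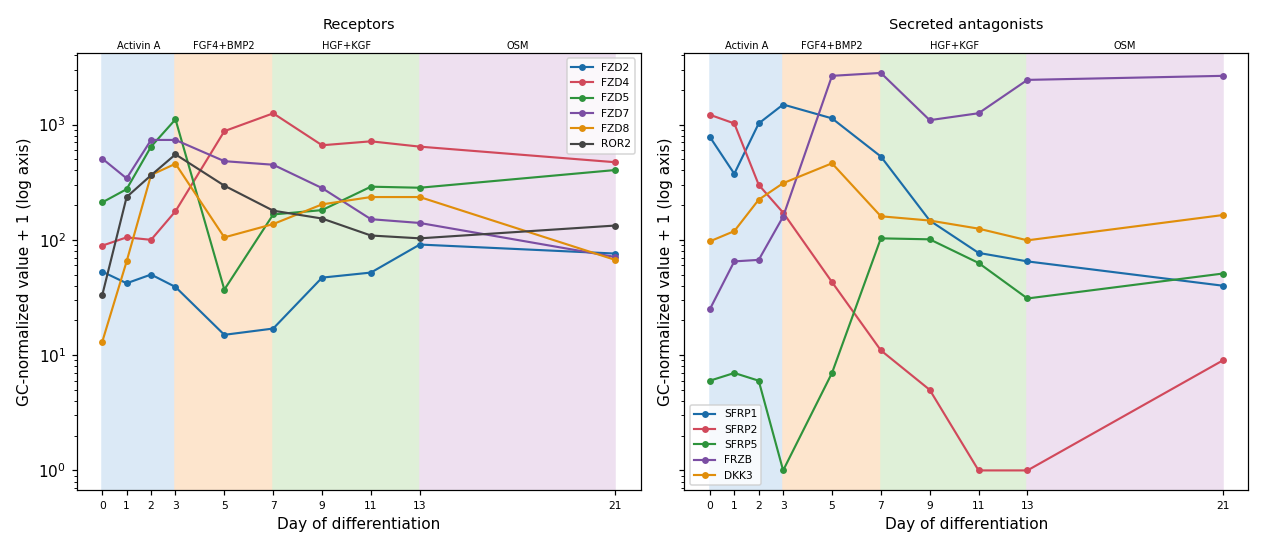
GC-normalized value + 1 (log axis) against day for 6 receptors (left) and 5 secreted antagonists (right), 1 library per point, media shaded. FZD5 is at 1108 on day 3 and 36 on day 5 while FZD4 goes from 176 to 875, and SFRP2 is at 171 and 42 while FRZB goes from 158 to 2643.

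The secreted antagonists did not move as a group. SFRP2, an extracellular protein that binds Wnt ligands, had values of 1214 on day 0, 1021 on day 1, 299 on day 2, 171 on day 3, 42 on day 5, 10 on day 7 and 4 on day 9, was listed at 0 on days 11 and 13 and was at 8 on day 21. It was the 1 member lower on day 3 than on day 0, with a log2 difference of -2.82, and it was lower again on day 7 than on day 3 (-3.97). SFRP1, of the same family, had 780, 373, 1021 and 1490 on days 0 to 3, 1130 on day 5, 527 on day 7, 146 on day 9, 76 on day 11, 64 on day 13 and 39 on day 21. SFRP1 was therefore highest at the DE stage, when SFRP2 had already been low, and was counted as lower only from day 7 to day 13 (-3.02). SFRP5, a marker of ventral foregut endoderm, lay between 0 and 6 from day 0 to day 5 and was at 102, 100, 62, 30 and 50 on days 7, 9, 11, 13 and 21.

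FRZB, a secreted Frizzled-related protein (ENSG00000162998, chromosome 2, bases 183698002 to 183731890), had 24 on day 0, 64 and 66 on days 1 and 2, 158 on day 3, 2643 on day 5, 2802 on day 7, 1090 on day 9, 1252 on day 11, 2438 on day 13 and 2643 on day 21. It was counted as higher both from day 0 to day 3 (2.67) and from day 3 to day 7 (4.14). The FRZB values from 2438 to 2802 lie on narrow levels that the libraries share, each held by 9 or 10 genes of a library, so that 2438, 2643 and 2802 are neighbouring steps and not finely graded amounts. DKK3, a divergent member of the DKK family, had 96, 118, 222 and 309 on days 0 to 3, 460 on day 5, 159, 146, 124 and 98 on days 7 to 13, and 163 on day 21. No stage comparison of DKK3 passed the limit.

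The second comparison was of the FGF4 and BMP2 step with the DE stage. At day 7, 7 of 36 members tested were higher than on day 3 (SFRP5, WNT11, RSPO3, FRZB, RNF43, FZD4 and WNT5A), and 6 were lower (SFRP2, LGR5, WNT3, DKK1, AXIN2 and FZD5). Of all genes tested, 5.63% were higher and 4.41% lower. The median difference of the 48 members was -0.18 and that of all genes -0.03. With a pseudocount of 5, or with libraries scaled by the median of ratios, WNT5A was not counted.

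In the day 5 library, 2 days into this step, a different set stood out. Compared with day 3, 7 members were higher (FRZB, RSPO3, NOTUM, PORCN, NKD1, FZD4 and SP5), where 2.85% of all genes tested were, and 4 were lower (FZD5, DKK1, FZD8 and SFRP2), where 2.24% were. This comparison and that of day 7 share the day 3 library. NOTUM, an enzyme that removes the lipid of Wnt ligands and so inactivates them, was listed at 0 on day 0, at 7, 42 and 30 on days 1, 2 and 3, at 212 on day 5, at 28 and 6 on days 7 and 9, at 2 on day 11 and at 1 on days 13 and 21. NKD1, which binds DVL proteins and dampens the signal, had 14 on day 0, 29, 21 and 18 on days 1, 2 and 3, 102 on day 5, 16 on day 7, 7, 5 and 2 on days 9, 11 and 13, and 1 on day 21. SP5, NOTUM and NKD1, all known as feedback targets of β-catenin, were each highest on day 5 and at or below 2 from day 13 on. From day 5 to day 7 these 3 genes were the members counted as lower, with log2 differences of -2.92 (SP5), -2.88 (NOTUM) and -2.60 (NKD1), and FZD5, SFRP5 and WNT11 were the 3 counted as higher, of 35 tested. Of all genes tested, 1.34% were lower and 2.25% higher. AXIN2 and LGR5, targets too, had their highest values on days 2 and 3 and not on day 5.

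PORCN, the acyltransferase that adds the lipid to every Wnt ligand, followed the same timing with a slower decline. It had 36, 31 and 37 on days 0, 1 and 2, 106 on day 3, 606 on day 5, 301 on day 7, 104 on day 9, 30 on day 11, 28 on day 13 and 11 on day 21. PORCN was the member of a value of 50 or more with the largest difference between days 9 and 11 (-1.76), which was below the limit. WLS, the carrier of lipid-modified ligands to the cell surface and not a member by name, had 96 on day 3, 1734 on day 5 and 266 on day 7. The genes for lipid addition and for export were thus highest in the same library. TCF7, a nuclear partner of β-catenin, was also highest on day 5, with 18, 37, 46 and 32 on days 0 to 3, 65 on day 5, 32, 24, 33 and 26 on days 7 to 13 and 5 on day 21, and it was below 50 in every other library. LEF1, another such partner, never reached 50. It was listed at 0 on days 0, 2 and 3, at 14 on day 5, at 38, 40 and 34 on days 7, 9 and 11, and at 8 on day 21.

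RSPO3, a secreted R-spondin that strengthens Wnt signalling by removing RNF43 and ZNRF3 from the cell surface (ENSG00000146374, chromosome 6, bases 127439749 to 127518441), had 6, 11, 16 and 20 on days 0 to 3, 298 on day 5, 960 on day 7, 221 on day 9, 96 on day 11, 40 on day 13 and 80 on day 21. Its difference from day 3 to day 7 was 5.52 on the log2 scale and that from day 7 to day 13 was -4.55, the largest in size of the members tested in that comparison. RNF43, a ligase that removes Frizzled receptors and is itself a target gene, had 20 on day 0, 4, 5 and 9 on days 1, 2 and 3, 36 on day 5, 70 on day 7, 36, 44 and 33 on days 9, 11 and 13, and 10 on day 21. RNF43 and RSPO3 thus had their highest value in the same library. LGR4, a receptor for R-spondins, was lowest on day 1 (82), at 199 on day 0, 118 and 142 on days 2 and 3, 271 on day 5, 446 on day 7, 522 and 517 on days 9 and 11, 414 on day 13 and 240 on day 21. Its log2 difference from day 3 to day 7 was 1.64. That of LGR5 over the same days was -3.94.

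WNT11, a ligand of the non-canonical branch, was listed at 0 on days 0, 1 and 2 and at 1 on days 3 and 5, and had 125, 190, 222, 251 and 63 on days 7, 9, 11, 13 and 21. WNT11 therefore came up between days 5 and 7, inside 1 medium, with a log2 difference of 5.98. WNT5A, another non-canonical ligand, had 9, 6, 14, 9 and 12 on days 0, 1, 2, 3 and 5, and 50, 88, 128, 202 and 206 on days 7, 9, 11, 13 and 21. From day 7 on, every value of WNT11 and WNT5A was above those of the same gene on days 0 to 5. WNT5B, also a non-canonical ligand, did not share this course: it was highest on day 5 (33), had 26 and 25 on days 7 and 9 and 10 or 11 later, always below 50.

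**Figure D4:**
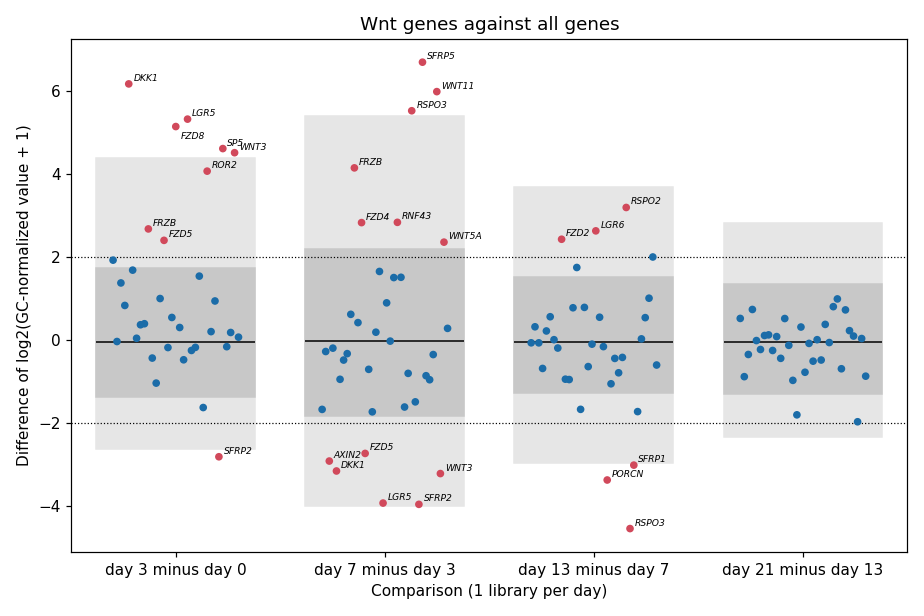
Log2 differences of the Wnt genes tested (points, red where the difference was at least 2 in size and labelled) in the 4 stage comparisons, with an outer and an inner percentile range (light and dark grey) and the median (line) of all genes tested. The comparison of day 21 with day 13 has no red point, against 8 above and 1 below for day 3 with day 0.

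The third comparison was of day 13 with day 7. Of 34 members tested, 3 were higher (RSPO2, LGR6 and FZD2) and 3 lower (RSPO3, PORCN and SFRP1), where 3.08% and 2.46% of all genes tested were. The median differences were -0.19 for the 48 members and -0.04 for all genes. With the day 11 library in place of day 13, 0 members were higher (1.67% of all genes) and RSPO3, PORCN and SFRP1 were lower (1.07%). LGR6 and FZD2 were then below the limit, and RSPO2, at 37 on day 11, was too low to be tested. On day 21 these 3 genes were again above their values of day 11, and day 21 was not compared with day 7. RSPO2, the R-spondin next in the family, was at 1 or 0 from day 0 to day 5 and at 9, 48, 37, 90 and 157 on days 7, 9, 11, 13 and 21. LGR6, the third LGR receptor, had 6, 3, 4 and 9 on days 0 to 3, was listed at 0 on day 5, and had 18, 38, 53, 116 and 109 on days 7, 9, 11, 13 and 21. FZD2 had 52, 41, 49 and 38 on days 0 to 3, 14 and 16 on days 5 and 7, 46 and 51 on days 9 and 11, 90 on day 13 and 75 on day 21. Its lowest values thus came in the FGF4 and BMP2 libraries, and on days 9 and 11 FZD2 was near its level in hESCs. From day 7 to day 13, RSPO3 and RSPO2 differed in opposite directions. LGR5, at 12 and 0 on these days, was too low to be tested.

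Markers of fibroblasts and stromal cells moved over the same days. Of the 14 genes of that list, 12 were found, and their summed value was between 2826 and 3727 from day 0 to day 5, 6532 on day 7, 20972 and 23526 on days 9 and 11, 41377 on day 13 and 43512 on day 21, and from day 5 on none of the 12 was at 0. Most of the difference in the sum between days 11 and 13 is COL1A2, which was at 6496 on day 11 and on the highest level of the scale on day 13. From day 7 to day 13, 5 of them were higher (COL1A2, DCN, LUM, PDGFRB and POSTN, of 11 tested, beside 3.08% of all genes) and 0 lower. The median log2 difference of the 12 found was 1.75, beside -0.04 for all genes. LUM and DCN were listed at 0 on day 3 and had 4866 and 2802 on day 13. Each of the 12 found had a higher value on day 13 than on day 7. Over the longer course the list did not move as 1, since TAGLN had 1324 on day 3, 265 on day 7 and 628 on day 13. THY1 had 147, 10 and 20 on these days. From day 3 to day 7, 5 genes of the list were higher and 2, TAGLN and THY1, lower, of 10 tested. Of all genes tested over these days, 5.63% were higher and 4.41% lower. Of the endothelial list, 5 of 7 genes were found, with a summed value of 373 on day 7 and 1950 on day 13. The part of these cell types in the values of RSPO2, LGR6, WNT5A and FZD2 was not tested.

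**Figure D5:**
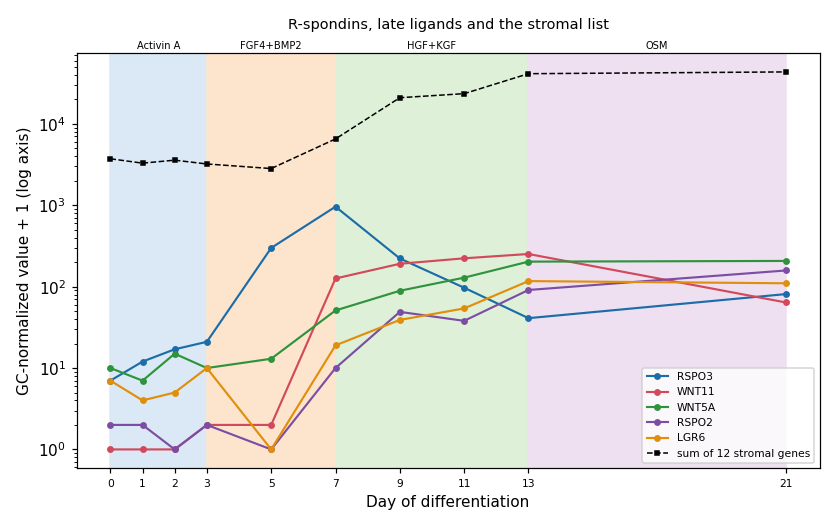
GC-normalized value + 1 (log axis) against day for RSPO3, WNT11, WNT5A, RSPO2 and LGR6, and the summed value of the 12 stromal genes found (dashed), 1 library per point, media shaded. RSPO3 peaks on day 7 at 960 while WNT5A, RSPO2 and LGR6 are at 202, 90 and 116 on day 13, when the stromal sum is 41377.

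The last comparison was of day 21, the hepatocyte-like stage, with day 13. Of 32 members tested, 0 were higher and 0 lower, where 2.28% and 1.62% of all genes tested were. WNT11 (251 and 63) and FZD8 (234 and 66) came nearest, with log2 differences of -1.98 and -1.81, and both were counted as lower when the limit was 1. With day 11 in place of day 13, RSPO2 was higher on day 21, where 2.87% of all genes were, and 0 members were lower, where 2.36% were. The median was -0.08 for the members and -0.10 for all genes. The summed value of the 2 macrophage genes found of 7 listed, CD68 and PTPRC, was 50 on day 13 and 324 on day 21.

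Most of the core components that carry the signal inside the cell varied little. DVL1 lay between 120 and 184, DVL2 between 119 and 191, DVL3 between 192 and 412, AXIN1 between 88 and 166 and GSK3B between 156 and 258 over the 10 libraries. CTNNB1 itself was lowest on day 0 (1064) and highest on day 5 (2021), and from day 3 to day 13 its values lay on shared levels. APC varied more than these, with 66 and 80 on days 0 and 1, 186 on day 2, 252 on day 3 and between 73 and 106 from day 5 on. Its log2 difference from day 0 to day 3, 1.92, was just below the limit. The cytoplasmic members AXIN2 and NKD1, given above, varied most, over log2 ranges of 3.10 and 5.69. The coreceptors LRP5 (123 to 420) and LRP6 (224 to 362), the receptors FZD3 (74 to 224), FZD6 (44 to 166) and ROR1 (66 to 207), and RSPO1 (194 to 704), ZNRF3 (30 to 102), TCF7L1 (124 to 336) and TCF7L2 (86 to 168) also stayed within a log2 range of 2. RSPO1 was highest on day 1 and was lower in all libraries from day 5 on than in those of days 0 to 3. FZD6 was higher on days 13 and 21 (166 and 151) than in any earlier library. The members that never reached 50 were LEF1, DKK2 (0 to 28), WIF1 (0 to 40) and WNT5B (10 to 33). WIF1, a secreted inhibitor, was between 0 and 9 until day 11 and at 40 and 27 on days 13 and 21. WNT5B overlaps FBXL14 on the opposite strand in the table, and reads of the 2 genes may not have been told apart.

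Other genes of the pathway were followed in lists. Of 25 further cytoplasmic and nuclear components, 22 were found, and 1 was higher (DACT2) and 1 lower (DACT1, which binds DVL proteins) on day 3 than on day 0 of 20 tested, near the shares of all genes (3.94% and 2.16%). All 14 genes of planar cell polarity and other non-canonical branches were found, and DAAM1 and VANGL1 were higher on day 3, of 11 tested, beside 3.94% of all genes. Of 13 further genes for secretion and extracellular control, 11 were found, and CER1, GPC4 and WLS were higher on day 3, of 9 tested, beside the same 3.94%. From day 3 to day 5 IGFBP4, GPC3, TMEM88 and WLS of this list were higher and CER1, GPC4 and APCDD1 lower, of 9 tested, beside 2.85% and 2.24% of all genes. TMEM88, which binds DVL proteins and lowers the signal, had 16 on day 3, 244 on day 5 and 628 on day 9.

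Of the genes known as β-catenin targets in the mesendoderm and elsewhere, 16 were found of 23 listed. From day 3 to day 5, 6 were higher (BAMBI, GAD1, ID2, MSX2, SP8 and TNFRSF19) and 6 lower (APCDD1, CYP26A1, EOMES, FGF8, MIXL1 and MYC), of 14 tested, again beside 2.85% and 2.24%. BAMBI, ID2 and MSX2 are also known to respond to BMP, which was in the medium. EOMES and MIXL1 are also known to respond to Activin and NODAL. GAD1 (42 on day 3, 468 on day 5 and 76 on day 7) and TNFRSF19 (22, 211 and 102) were, like NOTUM and NKD1, highest on day 5. BAMBI, MSX2 and CCND1 of the same list were highest on day 5 too, at 714, 352 and 402. The other genes found of the list were highest on other days. These genes were named after their values were seen, and the part of BMP or β-catenin in them was not tested. Of the liver genes known as β-catenin targets, 9 were found of 14 listed. On day 7, 3 were higher than on day 3 (GLUL, RHBG and TBX3, of 6 tested, beside 5.63% of all genes) and 0 were lower. The median over the 9 found, tested or not, was 2.03 beside -0.03 for all genes. TBX3 also stands in a list of hepatoblast markers, of which 7 of 8 tested were higher over the same days, with a median of 4.12. GLUL, which makes glutamine in hepatocytes around the central vein, had 620 on day 3 and 2798, 1640 and 2165 on days 7, 9 and 11. It had 2798 again on day 13 and 1436 on day 21, and 2798 lies on a level that the libraries share. From day 13 to day 21, 0 of the 8 liver target genes tested passed the limit in either direction.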

How the data were processed

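RNA of 1 library per day was sequenced. The authors aligned the reads with Bowtie2 2.2.0 and RSEM 1.2.17 to a transcriptome that the methods call ENSEMBL (mm10 v76), although names and identifiers are human, and normalized for GC content with EDASeq. The submitters' notes name both mm10 and hg19, so the build of the intervals is uncertain. The deposited values are whole-number scores with nearly the same distribution in each library. They are not counts, the depth is unknown, and every gene has at least 26 in at least 2 libraries. A scale of this kind shows no difference in total RNA and moves the highest genes between shared levels.

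Columns were assigned to days by their names and the sample titles (10 of 10). Differences of log2(value + 1) were taken with Python 3.11.15, numpy 2.4.6 and pandas 2.3.3, and plots with matplotlib 3.10.9. Genes were fitted to no model, since each day has 1 library. The calling code was tested on simulated data. Members with a value of 50 or more and a log2 range of 2 or more are given day by day, the others by range. The genes outside the member list that are named passed a limit or were chosen after their values were seen. The day 3 against day 0 result of the list of mesendoderm targets is not reported here. The members and lists were chosen with earlier results of these data known. The alternatives were other pseudocounts, scaling by the median of ratios, other filters on low values, a log2 limit of 1 and a neighbouring library of the stage. Promoters come from RefSeq GRCh38.p14.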

Additional observations from a re-analysis of the deposited data

How the results depend on the processing

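The 4 stage comparisons were recomputed under other settings. With pseudocounts of 0.1 and 5 and with libraries scaled by the median of ratios, which shifted log2 differences by at most 0.09, every count of Wnt genes stayed within 1.5 times its value. Of the single-gene differences under these settings, 332 stayed counted or not counted as before, 2 were no longer counted and 2 became counted. No difference counted at first changed sign. All 4 that changed were differences of WNT5A. From day 3 to day 7 its difference was 1.97 with a pseudocount of 5, below the limit. With scaled libraries it was 2.38, and WNT5A was not counted because its scaled value was below 50.

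Most counts depended on the filter on low values. Where 200 was asked of the larger value, fewer members were tested. At day 3 against day 0, 4 of 17 were higher, beside 4.76% of all genes. At day 7 against day 3, 3 of 20 were higher and 2 lower, beside 6.85% and 4.86%. At day 13 against day 7, 0 of 17 were higher, beside 3.16%. Without a filter all 48 members entered. At day 3 against day 0, 2 were lower, beside 2.76% of all genes. At day 13 against day 7, 5 were higher and 8 lower, beside 3.37% in each direction. At day 21 against day 13, 2 were higher and 1 lower, beside 2.48% and 3.04%. With a log2 limit of 1, 3 of 33 members were lower at day 3 against day 0, beside 9.07% of all genes. At day 7 against day 3, 10 of 36 were lower, beside 12.8%. At day 13 against day 7, 6 of 34 were higher and 6 lower, beside 9.65% and 8.21%. At day 21 against day 13, 2 of 32 were lower, beside 9.08%. With day 11 in place of day 13, 0 of 33 members were higher against day 7, beside 1.67% of all genes. At day 21 against day 11, 1 of 32, RSPO2, was higher, beside 2.87%. No paired analysis was possible because each day has 1 library. The depth of each library is unknown and limits every low value.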
